A study of Rattus norvegicus with 9 samples.

Results

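Annexins are cytosolic proteins that bind membranes rich in acidic phospholipids when calcium rises. Blood expression of 8 annexin genes of the rat (Anxa1, Anxa2, Anxa3, Anxa4, Anxa5, Anxa6, Anxa7 and Anxa11) was described here, out of 18166 genes with a value. They were taken by symbol from the annotation of the array, and each had a single transcript cluster, the unit that the array summarises. Other annexin genes with a value, 3 in number, were Anxa8, Anxa10 and Anxa13. The family was chosen by the log2 fold change of Anxa1 in YDBS against control, so that comparison is given for all 8 genes as a description without a test. The other comparisons share arrays with it.

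All 9 rats were male Sprague-Dawley animals of 250 to 280 g, with 3 in each group and 1 Affymetrix Rat Gene 2.0 ST array per rat, and their age was not given in the sources used here. Control rats had sham surgery without the filament. QDBS rats swam to exhaustion once a day for 21 days, and YDBS rats received intramuscular hydrocortisone at 45 mg/kg daily for 13 days, followed by 1 day of subcutaneous epinephrine (0.36 mg/kg). Transient middle cerebral artery occlusion came next in both models, and blood was taken from the abdominal aorta of every rat at 24 h of reperfusion. Since no group had occlusion or pretreatment alone, both cannot be told apart in a comparison with control. Each array was made from whole blood RNA, in which fewer cells of a type and less RNA per cell cannot be told apart. Values are log2 signals as the authors normalized them. A gene was called up-regulated or down-regulated at a false discovery rate (FDR) under 0.05 over all genes and an absolute log2 fold change (FC) over 1, from a limma fit of all arrays. With 3 arrays a group, precision is limited by their number.

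The family is built on a shared calcium-binding core, and a variable N-terminal tail sets each member apart. Annexin A1 is induced by glucocorticoids in many cell types. It is released by neutrophils and monocytes, and acts through formyl peptide receptors to limit leukocyte adhesion and migration. Annexin A2 pairs with S100a10 and binds plasminogen at the cell surface. Annexin A5 covers exposed phosphatidylserine, the lipid that marks dying cells and activated platelets.

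Promoter sequence is shown for Anxa1 and Anxa2, the annexins that rose in QDBS, and for Anxa11 as a member that was not called. The 250 bases upstream of the transcript start were read from RefSeq promoters of build GRCr8, in which 7 of the 8 genes matched and Anxa6 had no entry. Motif letters are in capitals, and the last base is next to the start.
Anxa1 (chr1:227303733-227303982, minus strand): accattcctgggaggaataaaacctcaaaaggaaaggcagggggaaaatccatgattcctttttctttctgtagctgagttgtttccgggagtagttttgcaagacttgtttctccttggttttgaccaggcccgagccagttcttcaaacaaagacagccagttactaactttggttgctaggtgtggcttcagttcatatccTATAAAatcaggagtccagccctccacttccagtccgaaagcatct
Anxa2 (chr8:78986002-78986251, plus strand): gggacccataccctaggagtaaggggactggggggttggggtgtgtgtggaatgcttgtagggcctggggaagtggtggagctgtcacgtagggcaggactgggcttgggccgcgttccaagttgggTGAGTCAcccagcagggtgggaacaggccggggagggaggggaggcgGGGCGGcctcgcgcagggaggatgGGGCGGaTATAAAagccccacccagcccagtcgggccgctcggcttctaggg
Anxa11 (chr16:1419484-1419733, plus strand): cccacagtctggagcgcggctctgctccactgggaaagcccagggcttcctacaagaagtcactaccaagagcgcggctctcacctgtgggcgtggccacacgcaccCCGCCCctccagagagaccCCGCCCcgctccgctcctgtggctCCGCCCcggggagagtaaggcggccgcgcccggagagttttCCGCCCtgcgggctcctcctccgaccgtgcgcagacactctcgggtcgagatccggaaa
Anxa1 and Anxa2 were the members with a TATA box (TATAAA), at bases 46 to 41 and 45 to 40 before the start. On either strand 13.1% of 27457 promoters held these letters. Anxa2 also held 1 match to AP-1 (TGANTCA, in 6.36% of promoters) and 2 GC boxes (GGGCGG, in 32.4%), and Anxa11 held 4 GC boxes. The GC box was found in 5 of the 7 members, all but Anxa1 and Anxa7. Anxa4 held an NF-kappaB match (GGGACTTTCC, bases 83 to 74, a motif found in 0.317% of promoters) and the CCAAT box, which Anxa7 held as well (34.3%). No member held the glucocorticoid receptor half-site TGTTCT, present in 17.1% of promoters, the full glucocorticoid response element, in which it forms an inverted repeat, present in 0.00364%, or the C/EBP letters TTGCNNCAA, present in 1.74%. No matches to different motifs overlapped. The GC content of the windows ran from 45.2% in Anxa1 to 69.2% in Anxa11, against a median of 52.0% over all promoters. A match describes these letters alone.

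Anxa1 was higher in both models than in control, with a mean log2 signal of 4.78 ± 0.61 in control, 7.51 ± 0.71 in QDBS and 8.71 ± 0.39 in YDBS (SD, n = 3). Its log2 signal was 5.38, 4.15 and 4.81 in the control rats, 7.47, 6.82 and 8.23 in the QDBS rats, and 8.26, 8.91 and 8.95 in the YDBS rats. The 3 groups did not overlap in the order control, QDBS, YDBS, although the highest QDBS array lay just under the lowest YDBS array. The gene rose in QDBS, 6.63-fold over control, with a log2 FC of 2.73 and a standard error of 0.37 (3 rats in each group, limma FDR = 0.000242). Its log2 FC in YDBS, the value that had chosen it, was 3.93 (standard error 0.37) and ranked 4 among 18166 genes. QDBS was lower than YDBS by a log2 FC of -1.20, with a 95% interval from -2.01 to -0.39 before adjustment and a FDR of 0.204 from limma. That difference had the same sign when each rat was left out in turn, between -1.56 and -0.85, with a FDR from 0.0917 to 0.696. The direct comparison uses the YDBS arrays in which Anxa1 had been picked as high.

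**Figure D1:**
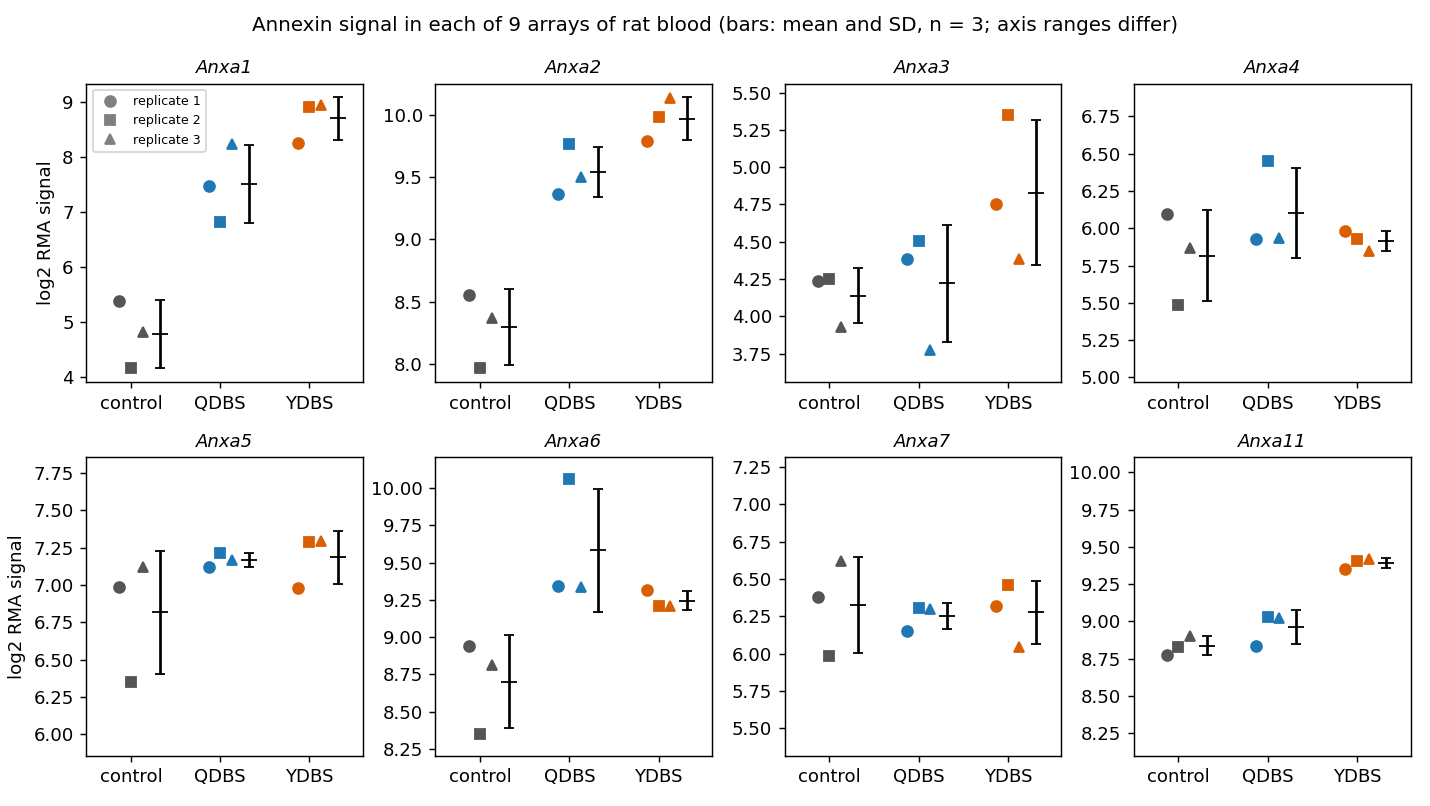
Log2 signal of each annexin (vertical axis, with a separate range for each gene) in the 3 control, 3 QDBS and 3 YDBS arrays, with the group mean and SD beside the points. Anxa1 and Anxa2 separate all groups in the order control, QDBS, YDBS, while Anxa7 overlaps in all of them.

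Anxa3, which is abundant in neutrophils, was dim in control and QDBS. Its signal was 4.24, 4.25 and 3.93 in control, 4.38, 4.51 and 3.77 in QDBS and 4.75, 5.35 and 4.38 in YDBS, where the array medians ran from 3.94 to 4.21. All YDBS arrays were above these medians, replicate 2 the most. QDBS and control overlapped, with a log2 FC of 0.08 (standard error 0.25, FDR = 0.799 from limma) that turned to -0.29 when arrays were centred on their 75th percentile. All YDBS arrays were above all control arrays, with a log2 FC of 0.69. Between the models Anxa3 had a log2 FC of -0.61 for QDBS against YDBS (95% interval -1.16 to -0.06 before adjustment, FDR = 0.396 from limma).

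Anxa2 had the same order with a smaller difference, with means of 8.30 ± 0.30 in control, 9.54 ± 0.20 in QDBS and 9.97 ± 0.17 in YDBS (SD, n = 3). The control arrays read 8.56, 7.97 and 8.37, the QDBS arrays 9.37, 9.76 and 9.50, and the YDBS arrays 9.79, 9.99 and 10.13. Again no group overlapped another, with the highest QDBS array just under the lowest YDBS array. Anxa2 rose 2.37-fold in QDBS, a log2 FC of 1.24 with a standard error of 0.17 (3 rats in each group, limma FDR = 0.000283). Centring on the 75th percentile brought this log2 FC to 0.88, which ended the call, as the limit on FC was no longer met. In YDBS its FC was 3.18 (log2 FC 1.67, standard error 0.17). QDBS against YDBS gave a log2 FC of -0.43 (95% interval -0.80 to -0.05 before adjustment, FDR = 0.384 from limma).

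Anxa5 varied little apart from a low control array. Its values were 6.99, 6.35 and 7.12 in control, 7.12, 7.21 and 7.17 in QDBS and 6.98, 7.29 and 7.29 in YDBS. The QDBS arrays all reached just above the highest control array, and the log2 FC of 0.35 was not called (standard error 0.19, FDR = 0.146 from limma). Its log2 FC in YDBS was 0.37. These values were 0.11 and 0.13 without control replicate 2, and -0.06 and -0.09 with quantile normalization. QDBS against YDBS gave -0.02 (95% interval -0.43 to 0.39, FDR = 0.996 from limma), and 0.03 with quantile normalization.

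Anxa6, which has a longer core than other annexins and acts on endosomal membranes and their cholesterol, had its highest arrays in QDBS. Control arrays had 8.94, 8.35 and 8.81, QDBS arrays 9.34, 10.06 and 9.34, and YDBS arrays 9.32, 9.21 and 9.21. Thus the order was control, YDBS, QDBS, with no overlap, and QDBS replicate 2 stood above the other QDBS arrays. Against control the log2 FC in QDBS was 0.88 (standard error 0.21, FDR = 0.00697 from limma), which met the FDR criterion and not that on FC. It was 0.64 without QDBS replicate 2 and 0.51 with centring on the 75th percentile. In YDBS it was 0.54, and QDBS against YDBS gave 0.34 (95% interval -0.12 to 0.80, FDR = 0.677 from limma), with 0.10 left without QDBS replicate 2.

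Anxa4, an annexin of epithelial and secretory membranes, was not called. It read 6.09, 5.49 and 5.87 in control, 5.93, 6.45 and 5.93 in QDBS and 5.98, 5.93 and 5.85 in YDBS. The groups overlapped, and the log2 FC in QDBS of 0.29 (FDR = 0.213 from limma) was -0.12 with quantile normalization. The YDBS arrays lay within 0.13 of each other, inside the range of the control arrays, with a log2 FC of 0.10 that was -0.30 with quantile normalization. QDBS against YDBS gave 0.19 (FDR = 0.873 from limma).

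Anxa7 and Anxa11 carry long N-terminal tails. Anxa7, known for membrane fusion in secretion, read 6.38, 5.98 and 6.62 in control, 6.15, 6.30 and 6.30 in QDBS and 6.32, 6.46 and 6.04 in YDBS. All groups overlapped, and Anxa7 was the member with the lowest log2 FC in each model, -0.08 in QDBS (95% interval -0.45 to 0.30, FDR = 0.728 from limma) and -0.05 in YDBS. Without control replicate 3 these were 0.07 and 0.10, while quantile normalization gave -0.51 (FDR = 0.0168) and -0.50. QDBS against YDBS gave -0.02 (95% interval -0.40 to 0.35, FDR = 0.993 from limma), and signs differed when rats were left out.
Anxa11, which binds the calcium sensor Pdcd6 and tethers RNA granules to lysosomes, differed by little and with little spread. It was 8.78, 8.83 and 8.90 in control, 8.83, 9.03 and 9.03 in QDBS and 9.35, 9.40 and 9.42 in YDBS. The YDBS arrays were thus above all others, while QDBS overlapped control (log2 FC 0.13, standard error 0.11, FDR = 0.357 from limma). Against control the YDBS group had a log2 FC of 0.56, and 0.18 with centring on the 75th percentile. QDBS against YDBS gave a log2 FC of -0.43 (95% interval -0.67 to -0.19 before adjustment, FDR = 0.123 from limma).

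Over the family, 2 of 8 annexins were called in QDBS against control, both up-regulated, where 9.62% of all genes were called up and 1.36% down. The median log2 FC of the 8 genes was 0.32 against -0.15 for all genes. With the dimmest 40% of genes left out, the median of the remaining genes was 0.08. In YDBS, given as a description, the median of the 8 genes was 0.55, and Anxa1 and Anxa2 had a log2 FC over 1. At the FDR criterion alone 3 of 8 (Anxa1, Anxa2 and Anxa6) were higher in QDBS, as were 20.0% of all genes. Both models share the control arrays. Between QDBS and YDBS limma called 0 of 8 annexins and 0.33% of all genes. The gene by gene test of the methods called 0 genes of all in that comparison. At an unadjusted p under 0.05 the direct comparison held 4 of 8 annexins (Anxa1, Anxa2, Anxa3 and Anxa11, all lower in QDBS), and 10.5% of all genes. No annexin had a FDR under 0.05 there. Counts in the direct comparison use the YDBS arrays in which Anxa1 had been picked as high, and are given as a description. Arrays did not overlap for 4 members in QDBS against control, all higher, where 22.8% of all genes did so. In the direct comparison 3 members, Anxa1 among them, lay lower in QDBS without overlap (8.65% of all genes) and Anxa6 higher (9.79%). As a description that includes the YDBS values, the highest group mean was in YDBS for 5 of the 8 genes, in QDBS for 2 and in control for 1, and over all genes in 20.8%, 22.1% and 57.2%. These shares include dim genes, whereas all annexins but Anxa3 stood high in mean signal.

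**Figure D2:**
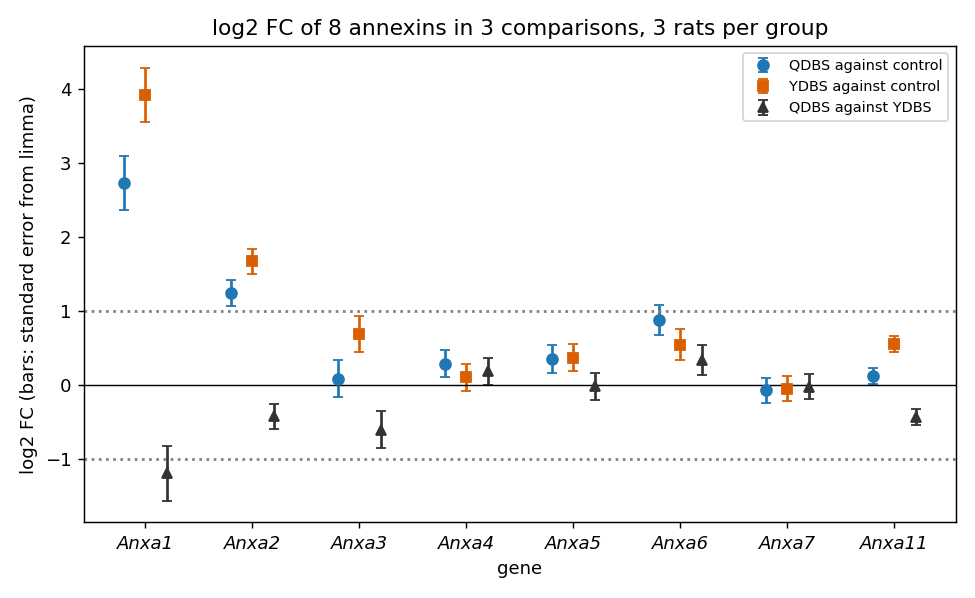
Log2 FC of each annexin (vertical axis) with its standard error from limma, for QDBS and YDBS against control and for QDBS against YDBS, 3 rats per group. Dotted lines mark the limit of 1 on the absolute log2 FC, which Anxa1 and Anxa2 exceed in both models and Anxa1 (-1.20, FDR = 0.204) in the direct comparison.

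Marker genes of several blood cell types also differed between the groups. The mean log2 signal of 6 leukocyte markers, among them Ptprc (CD45), ran from 9.04 to 9.60 in control, 10.5 to 10.7 in QDBS and 10.6 to 10.7 in YDBS, and 2 of them rose in QDBS and 3 in YDBS. That of 9 monocyte markers ran from 7.26 to 7.56, 8.0 to 8.25 and 8.15 to 8.27 (2 and 3 rose). For 14 neutrophil markers it ran from 7.27 to 7.59, 6.93 to 7.53 and 7.47 to 8.11, and 0 rose and 4 fell in QDBS while 5 rose and 2 fell in YDBS. T cell markers rose in 3 and 1 of 10, B cell markers in 3 and 2 of 6, and natural killer cell markers in 4 and 4 of 8, with none down. Platelet markers fell in 5 and 1 of 7, erythroid in 2 and 0 of 4, hepatocyte in 5 and 5 of 6 and endothelial in 1 and 0 of 5, with none up. Over all genes 9.62% were called up in QDBS and 10.4% in YDBS, and 1.36% and 0.919% down. The 1 of 10 T cell markers up in YDBS was near that share. The part of these cell types in the annexin values was not tested.

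The order of arrays within a group was often shared by members. Control replicate 2 was the lowest control array for 6 of 8 annexins, Anxa3 and Anxa11 being the exceptions, and for 40.3% of all genes. The same array was the highest control array for 41.0% of all genes. QDBS replicate 2 was the highest QDBS array for 7 of 8, and for 42.1% of all genes. The exception was Anxa1, for which it was the lowest. YDBS replicate 3 was highest for Anxa1, Anxa2, Anxa5 and Anxa11. Within pairs of members, profiles were most alike for Anxa4 and Anxa5, with a root mean square difference of 0.25 over 9 arrays on the log2 scale after each gene's control mean was subtracted. They were least alike for Anxa1 and Anxa7, at 2.85. The measure depends on the size of the log2 FC, so members that changed little come out alike. For pairs with Anxa1 it also includes the YDBS difference by which Anxa1 had been picked.

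By the same measure, Clec7a, the beta-glucan receptor of phagocytes, was most like Anxa1 among genes with a characterised symbol, with a difference of 0.25. Its log2 FC was 2.78 in QDBS and 3.86 in YDBS. Next came Igsf6, an immunoglobulin superfamily receptor, at 0.30, and Resf1, a silencing factor of retroelements in the mouse, at 0.39. Klra2, a lectin-like receptor whose relatives may share its probes, and Cast, the inhibitor of calpain proteases, followed with 0.39 and 0.40. For Clec7a, Igsf6, Klra2 and Cast control replicate 2 was the lowest control array, as for Anxa1, and QDBS replicate 2 was the lowest QDBS array for all 5 genes. The measure includes the YDBS difference by which Anxa1 had been picked, and is given as a description.

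**Figure D3:**
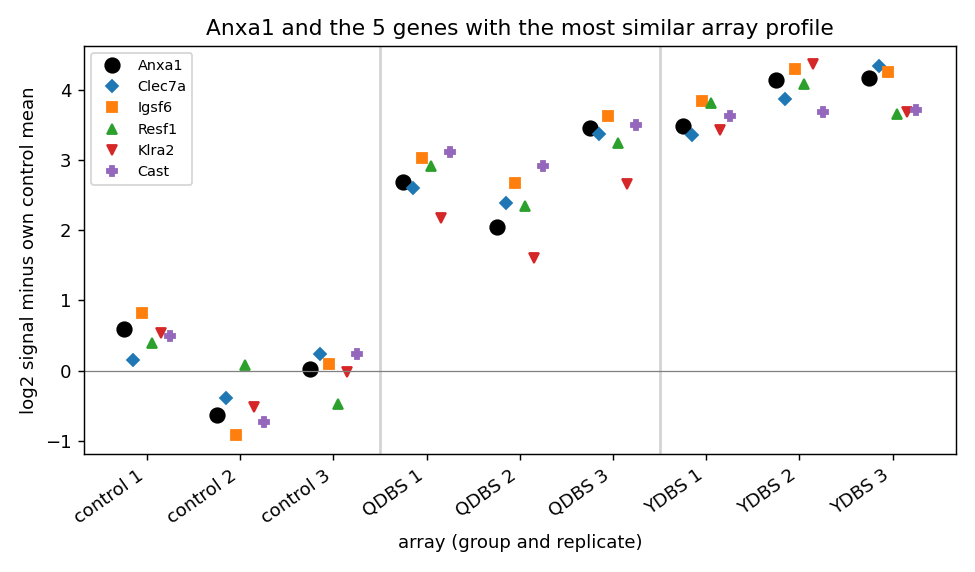
Log2 signal minus each gene's own control mean (vertical axis) for Anxa1 and the 5 genes of most similar profile in each of the 9 arrays. Anxa1 and Clec7a differ by 0.25 in root mean square, and Klra2 lies lowest of the set in the QDBS arrays.

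Further genes were taken in 7 lists, 59 measured genes in all. They were the other annexins, S100 partners, formyl peptide receptors and arachidonate release, glucocorticoid-induced genes, membrane repair, phosphatidylserine exposure and plasminogen activation, so not all encode proteins that act with annexins. In QDBS 4 of them rose and 3 fell, where 9.62% of all genes were called up and 1.36% down. In YDBS 9 of them rose and 2 fell, where 10.4% of all genes were called up and 0.919% down. With centring on the 75th percentile or quantile normalization 0 were called up in QDBS and 5 in YDBS, and without control replicate 2 they were 2 and 6. Their median log2 FC was -0.17 in QDBS and -0.08 in YDBS, against -0.15 and -0.16 for all genes. The other annexins Anxa8, Anxa10 and Anxa13 were dim, with array values of 2.14 to 4.10, and 0 of 3 were called by limma in QDBS or YDBS, with log2 FCs of -0.16 to -0.38. At an unadjusted p under 0.05 from limma, Anxa13 in both models and Anxa10 in YDBS were lower. In either direction 52.9% of all genes passed that limit in QDBS and 55.4% in YDBS.

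Among 6 S100 partners, S100a1 was the single call, and it fell in both models (log2 FC -2.27 in QDBS, limma FDR = 3.85e-06, and -2.30 in YDBS, limma FDR = 3.43e-06). The partners of annexins A2 and A1 are added here after their values were seen. S100a10, the light chain of the annexin A2 complex, had a log2 FC of 0.92 in QDBS (FDR = 0.00349) and of 0.89 in YDBS (FDR = 0.00391), under the limit on FC. S100a11, which binds annexin A1, had values of 10.27, 10.28 and 10.17 in control, 10.18, 9.95 and 10.51 in QDBS and 10.85, 10.96 and 11.09 in YDBS. Its log2 FC was -0.03 in QDBS (FDR = 0.882), 0.72 in YDBS (FDR = 0.00278) and -0.75 between them (FDR = 0.0576 from limma).

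Formyl peptide receptors carry the signal of annexin A1, and phospholipase A2, which it restrains, releases arachidonate for leukotrienes and prostaglandins. Of 7 measured genes of this list 1 rose and 1 fell in QDBS, while 4 rose and 0 fell in YDBS. Over all genes 9.62% and 10.4% were called up, and 1.36% and 0.919% down. Outside the rule for named genes, Pla2g4a, a phospholipase A2, was among those that rose in YDBS. Its mean log2 signal was 4.43 in control, 4.94 in QDBS and 5.44 in YDBS. The gene that fell in QDBS was Ptgs1, with means of 9.87 in control and 8.82 in QDBS. Fpr1, a receptor of bacterial and mitochondrial formyl peptides, was 4.96, 4.80 and 5.18 in control, 5.42, 5.56 and 6.82 in QDBS and 7.11, 7.90 and 7.62 in YDBS. The groups did not overlap, and QDBS replicate 3 was nearest to YDBS. Fpr1 rose in YDBS (log2 FC 2.56, FDR = 0.000154 from limma), while in QDBS its log2 FC of 0.95 (FDR = 0.0369) was under the limit. QDBS against YDBS gave -1.61 (FDR = 0.0659 from limma). Lta4h, the enzyme of leukotriene B4 synthesis, rose in both models (log2 FC 1.18 and 1.48), and Alox5, the 5-lipoxygenase, met both criteria in YDBS and not in QDBS (log2 FC 0.04 in QDBS and 1.07 in YDBS, -1.03 between them with a FDR of 0.112). Values of Fpr2 are not analysed here.

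Among 12 glucocorticoid-induced genes, 1 was up-regulated in QDBS, 2 were in YDBS and none was down-regulated. Over all genes 9.62% were called up in QDBS and 10.4% in YDBS, so the count in QDBS was near that share. Il1r2, the decoy receptor of interleukin 1, rose in YDBS (log2 FC 2.42, FDR = 9.75e-05 from limma) and had 0.60 in QDBS (FDR = 0.115). It was lower in QDBS than in YDBS (log2 FC -1.83, FDR = 0.0327), with 6.60, 7.17 and 7.60 in QDBS and 8.31, 9.30 and 9.25 in YDBS, a call that was lost without control replicate 1 or 3, QDBS replicate 1 or 2, or YDBS replicate 2. Fkbp5, a co-chaperone of the glucocorticoid receptor, rose in YDBS (log2 FC 1.75, FDR = 0.00112) and had 0.82 in QDBS, and Klf9, a transcription factor, rose in QDBS (log2 FC 1.15, FDR = 0.00464) and had 0.61 in YDBS. Tsc22d3, the glucocorticoid-induced leucine zipper, outside the rule for named genes, had a log2 FC of 0.01 and -0.08. Nr3c1, the glucocorticoid receptor itself, rose in both models (log2 FC 2.28 and 2.46, FDR = 5.88e-05 and 3.04e-05).

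Membrane repair uses annexins as a cap on torn membranes. 1 of 9 such genes rose in QDBS and 2 in YDBS, where 9.62% and 10.4% of all genes were called up. Pdcd6ip, which works with the ESCRT machinery, rose in both (log2 FC 1.24 in each), and Pdcd6, the partner of annexin A11, rose in YDBS (log2 FC 1.15, FDR = 0.00066) with 0.88 in QDBS. Among 15 genes of phosphatidylserine exposure and recognition, Tmem30a, the subunit of lipid flippases, was the single call and rose in both models (log2 FC 1.07 and 1.49). Most of that list went the other way, with a log2 FC below 0 for 13 genes in QDBS and 12 in YDBS. The list medians were -0.22 and -0.28, against -0.15 and -0.16 for all genes. Plg, which encodes plasminogen and is made by the liver, was the single call among 7 genes of plasminogen activation, and it fell with a log2 FC of -1.24 in both models (limma FDR = 0.000255 and 0.000235). The mean log2 signal of 6 hepatocyte markers ran from 5.40 to 5.61 in control, 3.44 to 3.53 in QDBS and 3.41 to 3.54 in YDBS, and their part in the value of Plg was not tested.

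**Figure D4:**
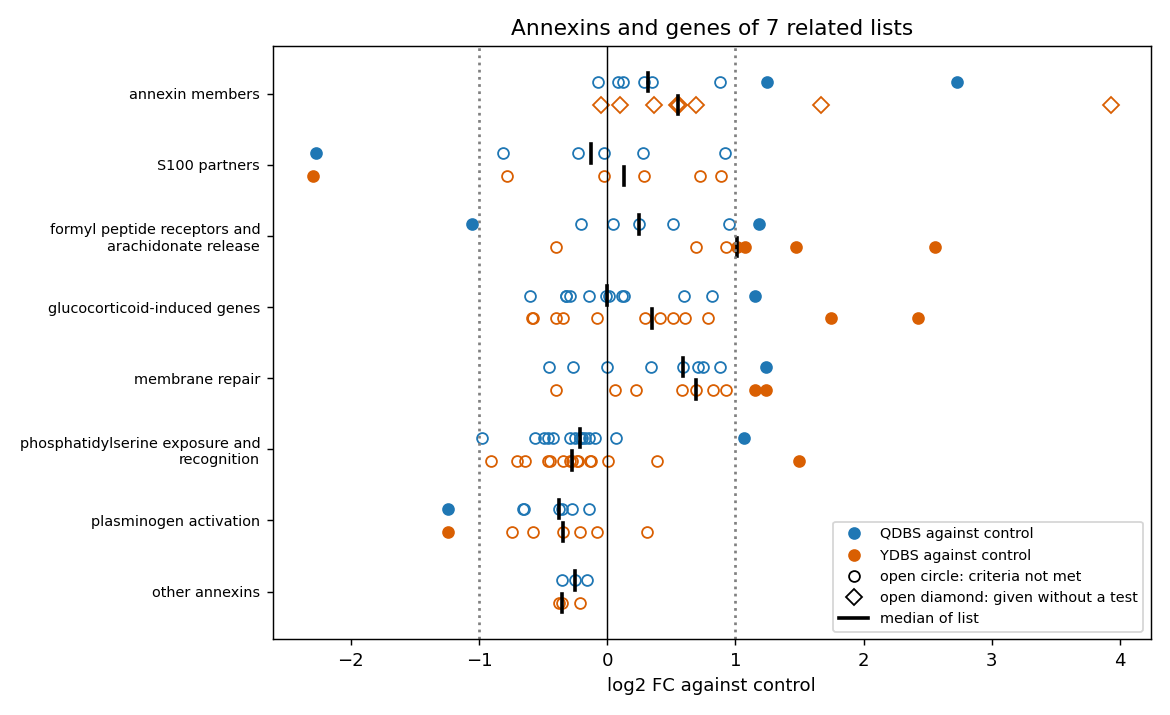
Log2 FC against control (horizontal axis) of the 8 annexins and of the measured genes in 7 related lists, for QDBS and YDBS, with called genes filled, list medians as bars and annexins in YDBS as open diamonds without a test. The list of formyl peptide receptors and arachidonate release has a median of 0.25 in QDBS and 1.01 in YDBS.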

How the data were processed

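Blood RNA of 9 rats was hybridised to Affymetrix Rat Gene 2.0 ST arrays, and the labels and methods name 3' IVT kits for its labelling. The authors deposited log2 values of 30347 transcript clusters, computed by the RMA method of Affymetrix Expression Console 1.1. The annotation of the array gave a single symbol to 18511 clusters, of which 18394 were updated through Entrez identifiers of the GRCr8 RefSeq table. The brightest cluster of each gene was kept, which left 18166 genes, and no gene was left out for low signal.

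Limma 3.58.1 in R 4.3.3 fitted 3 group means to 9 arrays with 6 residual degrees of freedom, and FDRs followed Benjamini-Hochberg over all genes. The script was tested on simulated data. The median log2 FC of all genes was -0.15 in QDBS and -0.16 in YDBS, so values relative to all genes are higher by these amounts. With the dimmest 40% of genes left out these medians were 0.08 and 0.07, so values relative to the remaining genes are lower. The array medians over all transcript clusters ran from 4.15 to 4.21 in control and from 3.94 to 4.05 in the models. Replicate numbers did not pair rats between groups: after removal of group means, same-numbered arrays correlated between -0.17 and 0.20 and others between -0.13 and 0.22.

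The annexins and all lists were chosen with earlier results of these data known. The text named all annexins, up to 3 called genes per related list or 2 bright ones where none was called, Nr3c1 and the 5 characterised genes most like Anxa1. Marker lists are given as counts. The t-test of the methods, other scalings and filters, other fits and leaving out each rat were alternatives.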

Additional observations from a re-analysis of the deposited data

Results flagged for a closer look

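Of the listed genes, 3 stood out between the models, and 1 of them, Il1r2, met the criteria. Il1r2 was lower in QDBS than in YDBS by the direct test of limma (log2 FC -1.83, FDR = 0.0327), with all 3 QDBS arrays below all YDBS arrays. Plaur, the urokinase receptor, lay below the control mean on all QDBS arrays and above it on all YDBS arrays, with a log2 FC of -0.59 between the models that was not called (FDR = 0.106 from limma). Capns1, the small subunit of calpains, did the same with a log2 FC of -0.33, not called (FDR = 0.358). None of the 8 annexins was selected in this way, and groups of 3 rats were too small for the search for outlying arrays.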

How the results depend on the processing

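Of 432 log2 FCs of annexins recomputed under 18 alternatives, 406 kept their direction and their joint call on FDR and FC, 24 changed sign, 1 lost its call and 1 gained one. Most of the 406 were values outside the joint criteria in the main fit that stayed outside. Among the tested comparisons, only Anxa1 and Anxa2 met both criteria in that fit, in QDBS against control. Values of YDBS against control, the comparison in which Anxa1 was picked, are counted here as a description. On FDR alone values did cross 0.05, as for Anxa6 in QDBS, with a FDR of 0.115 in the t-test of the methods. The changes of sign belonged to members that were not called. In QDBS against control, centring on the 75th percentile gave -0.29 for Anxa3, -0.082 for Anxa4, -0.020 for Anxa5 and -0.24 for Anxa11, and quantile normalization gave -0.12 for Anxa4, -0.057 for Anxa5 and -0.027 for Anxa11. In YDBS against control, Anxa4 became -0.28 and Anxa5 -0.012 with the former, Anxa4 -0.30 and Anxa5 -0.087 with the latter, and Anxa7 0.028 with centring on the median. QDBS against YDBS became 0.029 for Anxa5 with quantile normalization. With each rat left out in turn, Anxa3 ran from -0.061 to 0.31 in QDBS, Anxa4 from -0.065 to 0.24 in YDBS, and Anxa7 from -0.25 to 0.072 in QDBS, -0.22 to 0.10 in YDBS and -0.14 to 0.069 between the models, where Anxa5 ran from -0.12 to 0.034. The causes were not tested.

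Anxa1 in QDBS ran from 2.37 to 3.07 over rats left out, and Anxa2 from 1.08 to 1.37, and both remained called. Annexins called up in QDBS numbered 1 with centring on the 75th percentile, where Anxa2 was at 0.88, and 2 to 3 over rats left out, Anxa6 being called at 1.00 without QDBS replicate 3. With the replicate number as a block 2 were called (Anxa1 log2 FC 2.73, FDR = 0.000363), and the replicate block changed no other call of an annexin or count over the lists beyond 1.5 times.

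Genes of the 7 related lists called up in QDBS numbered 4, and 0 under 75th percentile centring, 0 with quantile normalization, 2 with the t-test of the methods and 2 to 6 over rats left out. Those down numbered 3, and 7, 5 with these scalings and 2 to 4 over rats left out. In YDBS 9 were up, and 5, 5 and 5 with these scalings and the t-test and 6 to 12 over rats left out. In YDBS 2 were down, and 7 and 4 with these scalings and 1 with the dimmest 40% of genes left out. Between the models 1 was lower in QDBS (Il1r2), 2 with dim genes left out, 0 with only the compared groups in the fit, 0 with the t-test and 0 to 3 over rats left out. It was 0 without control replicate 1 or 3, QDBS replicate 1 or 2, or YDBS replicate 2.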
